A study of Drosophila melanogaster with 4 samples.

Results

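The Drosomycin family and related antimicrobial peptide genes were followed across 4 arrays of wing imaginal discs, the epithelial sacs of the larva from which the adult wing grows. The members are the probe sets annotated to 8 gene symbols, Drs, Drsl2, Drsl5, AttA, AttD, CecA1, Def and Mtk. Of these 8 genes, 6 have a probe set of their own, with 1 probe set each, out of 11981 genes so measured in the series. AttA and CecA1 are not analysed here. RNA came from discs of 3rd-instar larvae kept at 25 degrees, with 1 array for each of 4 genotypes. Discs with both transgenes (PI3K plus Hdac3 RNAi) carry en-Gal4 over UAS-PI3K together with UAS-Hdac3 RNAi, PI3K discs carry en-Gal4 over UAS-PI3K, Hdac3 RNAi discs carry en-Gal4 and UAS-Hdac3 RNAi, and control discs carry en-Gal4 alone. All 4 share the yw background, and the labels write the driver and each transgene in single copy. The driver uses the engrailed promoter, which is active in posterior cells, so anterior cells of the same discs add RNA that the transgenes did not touch. How many discs or animals went onto an array is not stated.

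Antimicrobial peptides are small secreted effectors of insect innate immunity. In Drosophila, the Toll pathway, through the NF-kappaB factors Dif and Dorsal, and the Imd pathway, through Relish, switch them on after infection, chiefly in the larval fat body and in hemocytes. Some epithelia also express single members locally. Drosomycin (Drs) is an antifungal peptide and the usual readout of Toll signalling, and Drsl2 and Drsl5 encode Drosomycin-like peptides. Defensin (Def) acts mainly on Gram-positive bacteria, Metchnikowin (Mtk) on fungi and Gram-positive bacteria, and the attacin and cecropin families on Gram-negative bacteria.

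On chromosome arm 3L, Drsl2, Drsl3, Drsl4 and Drsl5 lie next to each other in the RefSeq gene order. Drsl1 and Drsl6 form a second neighbouring pair, and Drs follows with kst between. All 7 genes of the family have a probe set, and only Drs, Drsl4 and Drsl5 reached the floor on all 4 arrays. The floor, an intensity of 26.9, is the level under which 90% of the readings of odorant and gustatory receptor probe sets fell. Values below it were treated as not separable from background.

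Markers of the tissue named in the labels were present on all 4 arrays, and so were markers of other tissues, given below. All 10 measured wing disc markers reached the floor on all 4 arrays, with summed intensities of 11320 in discs with both transgenes, 8288 in PI3K, 12073 in Hdac3 RNAi and 10816 in control. Between 62.9% and 64.3% of the named genes reached the floor on each array. The 3' to 5' ratio of the actin control transcript was 2.85 in discs with both transgenes, 2.02 in PI3K, 3.25 in Hdac3 RNAi and 3.36 in control. The PI3K array thus had the lowest ratio, as it did for GAPDH (1.92) and eIF-4a (3.11). Readings for Hdac3 and for subunits of PI3K are not used here, so the transgenes were taken from the labels. With 1 array per genotype no difference has a replicate check, and no test was run. As a gauge of agreement between probe sets, the log2 ratios that several probe sets gave for a single gene had an SD of 0.15 to 0.24, depending on the comparison. These probe sets share the same arrays, so this SD holds no spread between arrays or animals. Over genes up to the members' level the SD of the log2 ratios was 0.26 to 0.40.

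Drs was the member with the widest range among those measured on every array. Its scaled intensity was 75.4 in discs with both transgenes, 72.9 in PI3K, 309 in Hdac3 RNAi and 158 in control. Both genotypes that carry PI3K thus sat at about the same low level, control was higher, and Hdac3 RNAi alone was the highest. The highest value was 4.24 times the lowest. The log2 difference between discs with both transgenes and PI3K discs was 0.05, smaller than the 0.24 SD between probe sets of 1 gene in that comparison. The other neighbours in the order were further apart than that gauge.

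Drsl2 was seen above the floor in control and PI3K discs only. It read 18.4 in discs with both transgenes, 37.2 in PI3K, 19.2 in Hdac3 RNAi and 113 in control. Control was therefore the one high array, and the 2 arrays with Hdac3 RNAi were both under the floor. The order of those 2 cannot be given.

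Drsl5 ran the other way. It read 64.8 in discs with both transgenes, 88.6 in PI3K, 76.2 in Hdac3 RNAi and 45.1 in control, so all 3 genotypes with a UAS transgene lay above control. Its next neighbour on the chromosome arm, Drsl4, stayed within a narrow band, with 87.4 in discs with both transgenes, 90.8 in PI3K, 92.4 in Hdac3 RNAi and 81.6 in control. Drsl3 and Drsl6 were under the floor throughout. Drsl1 crossed it on 2 arrays without passing 30.4. The 4 adjacent genes Drsl2 to Drsl5 thus had no common pattern over the genotypes.

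Def was present on every array with a small range. It read 85.2 in discs with both transgenes, 100.3 in PI3K, 73.2 in Hdac3 RNAi and 110 in control, so both arrays with Hdac3 RNAi were below both arrays without it. Mtk stood close to the floor, at 20.3 in discs with both transgenes, 35.7 in PI3K, 15.6 in Hdac3 RNAi and 30.7 in control. As with Def, the 2 Hdac3 RNAi arrays were the low ones, both under the floor. AttD, an attacin-class gene, lay under the floor on all 4 arrays, with 13.2 in discs with both transgenes, 11.3 in PI3K, 11.3 in Hdac3 RNAi and 8.77 in control. In all, 3 members were measured on all 4 arrays, 2 on some and 1 on none.

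**Figure D1:**
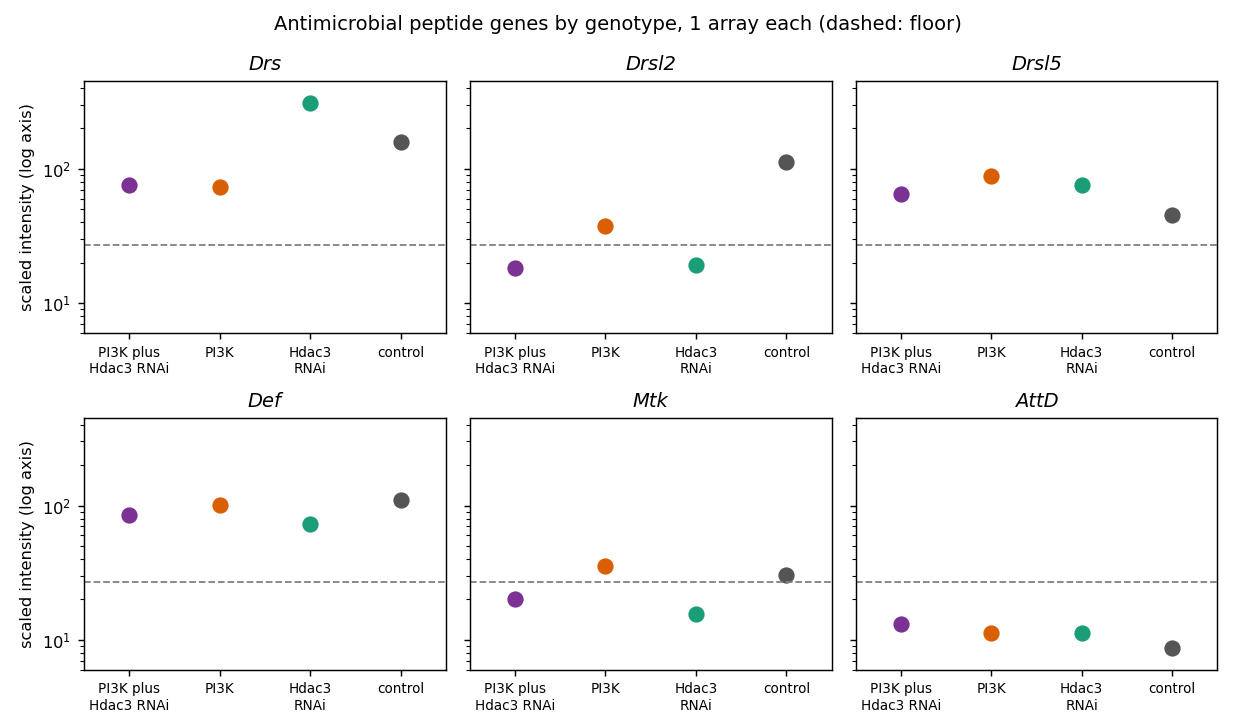
Scaled intensity (log axis) of the 6 measured members in discs with both transgenes, PI3K, Hdac3 RNAi and control, 1 array per point, with the floor of 26.9 as a dashed line. Drs is lowest in both PI3K-carrying genotypes (75.4 and 72.9), Drsl2 is high in control only (113), and AttD is under the floor throughout.

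PI3K overexpression against control asks what the growth signal alone does. Of the 5 members measured on both arrays, 2 were at least 2-fold lower. Among all named genes measured on both arrays, 1.24% were at least 2-fold apart in either direction and 0.39% were at least 2-fold lower. Dim genes vary more, and among genes with a mean level in the range of the members the share past 2-fold in either direction was 2.46%. The log2 ratio of Drsl2 was -1.60, the lowest of 7436 genes measured on both arrays, and that of Drs was -1.12, in place 16 from the bottom. Genes under the floor on either array were not ranked. Drsl5 was higher by 0.97, just inside the 2-fold line, while Def (-0.13) and Mtk (0.22) lay within the SD of 0.23 between probe sets. The PI3K array read short genes slightly higher than control did, with a median log2 ratio of 0.11 in the quartile of genes with the shortest spans. In the quartile with the longest spans the median was -0.16. Drs spans 387 bases, Drsl2 333 and Drsl5 364. With the median of the same span quartile subtracted, Drs was at -1.23, Drsl2 at -1.70 and Drsl5 at 0.87. The cause of the shift with gene span was not tested.

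Hdac3 RNAi against control asks what RNAi against the histone deacetylase gene does without PI3K. Of the 3 members measured on both arrays, 0 were at least 2-fold apart, against 0.554% of all named genes and 1.12% of those in the members' range of levels. Drs was higher by 0.97 log2, or 1.95-fold, in place 22 from the top of 7407 genes. Drsl5 was higher by 0.76 and Def lower at -0.58, both beyond the probe-set SD of 0.18. Drsl2 was at least 4.18-fold lower, a bound set by the floor. Of 323 genes with 1 array under the floor, 0.929% were at least 2-fold lower as a bound. The 323 include genes under the floor in control, which cannot be lower as a bound. The share among genes that could be lower is therefore larger and was not computed. Mtk gave a bound of -0.19, which its closeness to the floor limits.

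In discs with both transgenes against control, 1 of the 3 members measured on both arrays was at least 2-fold lower, against 0.5% of all named genes. In either direction the share was 0.703% of all named genes and 1.38% of those in the members' range. The member was Drs, at -1.07 log2. Drsl2 was again at least 4.18-fold lower as a bound. Of 360 genes with 1 array under the floor, 2.22% were at least 2-fold lower as a bound. These too include genes under the floor in control, so the share among genes that could be lower is larger. Drsl5 was at 0.52 and Def at -0.36. These 3 comparisons share the control array. Drsl2 and Drsl5 set that array apart from the other 3, so their ratios in the 3 comparisons rest on 1 reading of control each.

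Discs with both transgenes against PI3K discs show Hdac3 RNAi added to PI3K overexpression. Here 0 of 3 members measured on both arrays were at least 2-fold apart, against 1.23% of all named genes and 2.21% of those in the members' range. Drs was at 0.05, Def at -0.24 and Drsl5 at -0.45, of which only Drsl5 was past the probe-set SD of 0.24, and all 3 lay inside the central 95% of all named genes. The bounds were -0.47 for Drsl2 and -0.41 for Mtk.

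Discs with both transgenes against Hdac3 RNAi discs show PI3K overexpression added to Hdac3 RNAi. Of the 3 members measured on both arrays, 1 was at least 2-fold lower, against 0.376% of all named genes. In either direction the share was 0.51% of all named genes and 0.943% of those in the members' range. Drs had 75.4 in discs with both transgenes against 309 in Hdac3 RNAi discs, a log2 ratio of -2.04 or 4.10-fold lower, in place 10 from the bottom of 7456 genes. Neither array of this pair enters PI3K against control, in which Drs was 2.17-fold lower. Drsl5 was at -0.23 and Def at 0.22, both just past the probe-set SD of 0.15 but inside the SD of 0.26 over genes up to the members' level and inside the central 95% of all named genes.

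**Figure D2:**
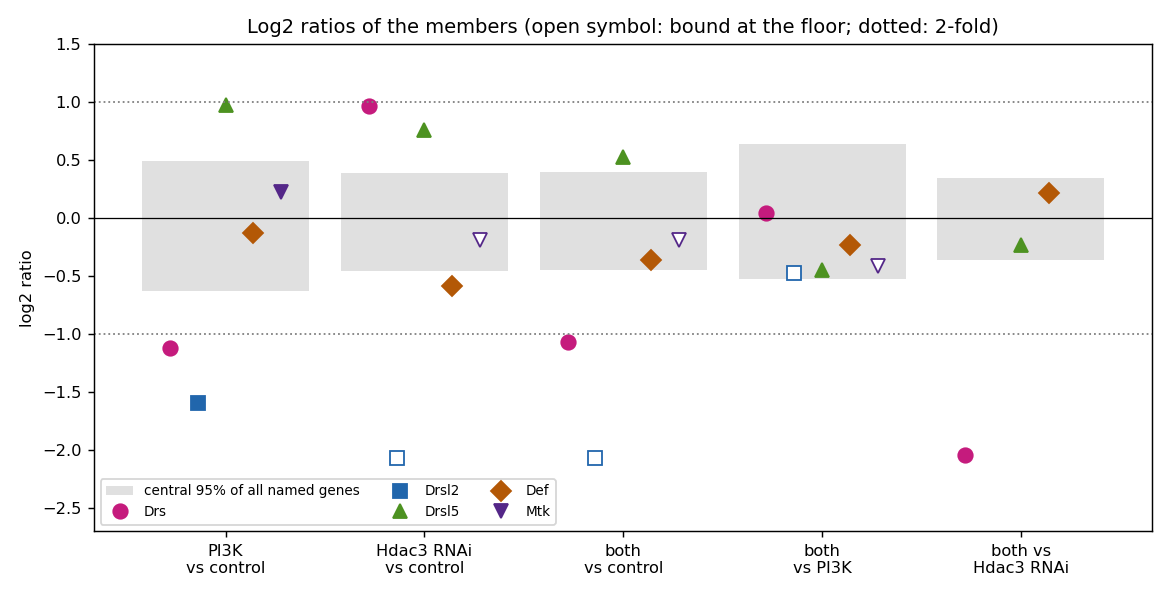
Log2 ratio of each member in the 5 comparisons, with grey bars for the central 95% of all named genes, dotted lines at 2-fold and open symbols for bounds at the floor. Drs lies below -1 in the 2 comparisons that add PI3K and in both transgenes against control, and at 0.05 in both transgenes against PI3K.

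The design crosses both transgenes, so each effect can be read in 2 backgrounds. The departure from additivity subtracts the Hdac3 RNAi effect without PI3K from that in PI3K discs, on the log2 scale, for the 3 members measured on all arrays. For Drs the Hdac3 RNAi effect was 0.05 with PI3K and 0.97 without it, a departure of -0.92. For Drsl5 the Hdac3 RNAi effect was -0.45 with PI3K and 0.76 without it, a departure of -1.21. Each transgene alone went with more Drsl5 signal than control, and the combination read less than either alone. For Def the effects were -0.24 with PI3K and -0.58 without it, a departure of 0.35. A departure of at least 1 log2 was seen in 1 of the 3 members and in 1.25% of 7301 genes. The size of the departure was exceeded by 67 genes for Drsl5, by 108 for Drs and by 950 for Def. Each departure rests on 4 single arrays and its size depends on the log scale.

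**Figure D3:**
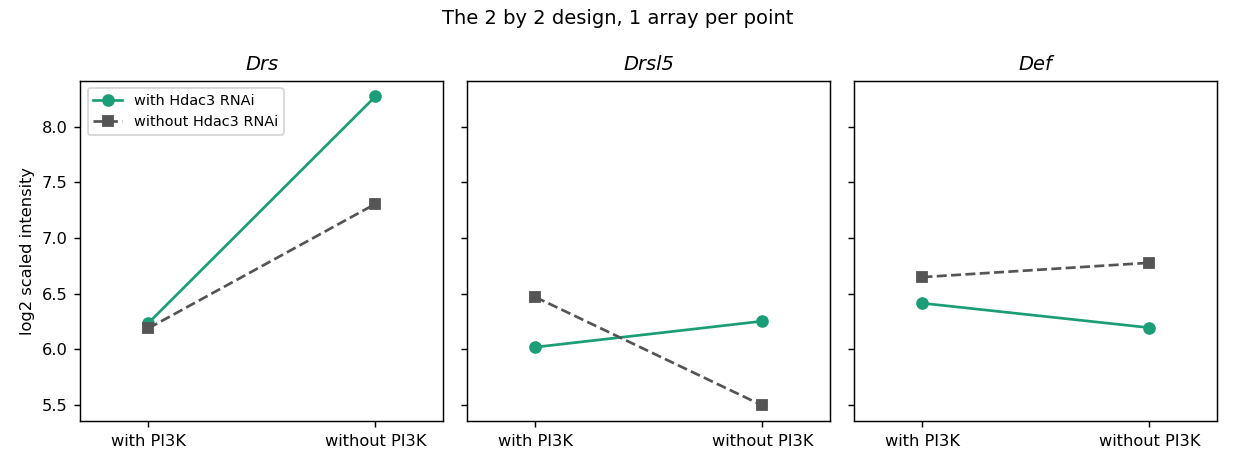
Log2 scaled intensity of Drs, Drsl5 and Def with PI3K (left in each panel) and without it, joined for discs with Hdac3 RNAi (circles) and without (squares), 1 array per point. The Drs lines meet with PI3K and are 0.97 apart without it, and the Drsl5 lines cross.

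Drs had its closest match over the 4 arrays in He, which encodes Hemese, a surface protein of larval hemocytes. Likeness was measured as the distance between log2 values centred on each gene's mean over the 4 arrays, among 7298 other genes that reached the floor on all arrays. He read 97.8 in discs with both transgenes, 99.4 in PI3K, 250 in Hdac3 RNAi and 154 in control, at a distance of 0.62. It thus had the same order of high and low arrays as Drs, apart from the 2 PI3K-carrying arrays, which were nearly equal for both genes. Ag5r2 was almost as close (0.62), and CG13323 (0.90), Nplp2 (0.94) and Mec2 (1.08) came next. None of these is on a marker or immune list used here. The hemocyte GATA factor gene srp was in place 12. Hml, the hemocyte gene for Hemolectin, was in place 25, and PGRP-SB1, a peptidoglycan recognition gene, in place 27. The hemocyte markers eater and NimC1 were further off, in places 30 and 56. The other hemocyte markers that reached the floor on all arrays, Pxn, vkg, Col4a1, crq and LanA, came after place 56. Hml, PGRP-SB1, eater, NimC1 and Pxn were chosen after their values were seen. With 4 arrays, likeness describes these readings alone.

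The hemocyte list as a whole differed in the same directions as Drs, by smaller amounts. Of its 11 measured markers, 10 reached the floor on all arrays, and none was under it on all 4. Their summed intensity was 4494 in discs with both transgenes, 4016 in PI3K, 5499 in Hdac3 RNAi and 5012 in control. The median log2 ratio was -0.23 in PI3K against control, with 11 of 11 markers lower, beside 0.02 for all named genes. It was 0.32 in Hdac3 RNAi against control, with 8 of 11 higher, beside -0.03 for all named genes. NimC1 (-0.21), LanA (-0.07) and eater (-0.03) were lower there, unlike Drs. In discs with both transgenes against Hdac3 RNAi it was -0.56, with 11 of 11 lower, beside 0.02. It was -0.22 in discs with both transgenes against control, with 9 of 11 lower, and 0.04 against PI3K. NimC1 (-1.03) was the only marker at least 2-fold lower in discs with both transgenes against control. At least 2-fold lower against Hdac3 RNAi were He (-1.35) and srp (-1.16), while the basement membrane gene LanA, the marker with the highest mean, was at -0.09. Drs was at -2.04 there, lower than any of the 11. The part of hemocyte RNA in the Drs readings was not tested, and in whole discs fewer cells of a type and less RNA per cell cannot be told apart.

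Wing disc markers shared part of the order of the Drs readings. Their median log2 ratio was -0.30 in PI3K against control, with 9 of 10 lower. It was 0.21 in Hdac3 RNAi against control, with 9 of 10 higher. In discs with both transgenes it was -0.12 against Hdac3 RNAi, with 7 of 10 lower. Against control it was 0.10, with 7 of 10 higher, where Drs was lower. None of the marker lists of tissues other than disc and hemocytes shared the whole order of the Drs readings, though muscle shared part of it. Fat body markers, 7 measured with Yp1 under the floor throughout, summed to 1390.0 in discs with both transgenes, 13797 in PI3K, 7130 in Hdac3 RNAi and 3690.1 in control. They were thus highest on the PI3K array, where Drs was lowest, and low in discs with both transgenes, where Drs was low as well. Their median log2 ratio was 1.80 for PI3K against control and -2.80 for the discs with both transgenes against Hdac3 RNAi. Salivary gland markers, 9 measured with Sgs1 and fkh under the floor throughout, summed to 549 in discs with both transgenes, 4285 in PI3K, 741 in Hdac3 RNAi and 742 in control. Gut markers, 8 measured, summed to 358, 4164, 1363 and 1566 in the same order of genotypes. Jon99Ci and Mal-A1 were under the floor throughout. Tracheal markers, 5 measured and all present, summed to 10876, 8739, 10410.2 and 8155, and the 5 measured muscle markers, with up under the floor throughout, to 796, 680.2, 882 and 904. The part of these tissues in the members' readings was not tested.

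**Figure D4:**
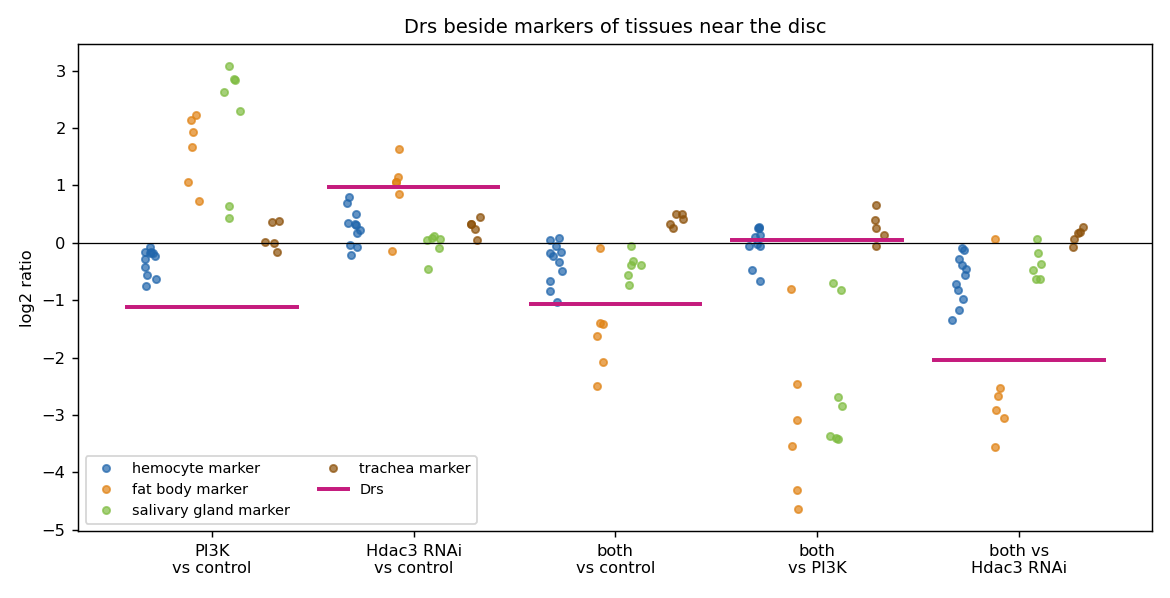
Log2 ratio of Drs (horizontal bars) and of each marker of hemocytes, fat body, salivary gland and trachea (points) in the 5 comparisons. In PI3K against control Drs (-1.12) and all 11 hemocyte markers are below 0, while fat body and salivary gland markers are above it.

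Peptide genes outside the members were mostly at background. Of 9 further antimicrobial genes measured, 5 were under the floor on every array, among them DptB, an Imd-responsive diptericin gene, and Anp, the male-specific andropin gene. The cecropin gene CecB read 37.9 in discs with both transgenes, 40.9 in PI3K, 35.95 in Hdac3 RNAi and 49.8 in control, so control was its highest array. Elevated infection peptide (edin) stayed between 23.9 and 32.3. Of 10 measured Bomanins and other Toll-induced peptides, 7 were under the floor on all arrays. IM33 read 19.4 in discs with both transgenes, 83.3 in PI3K, 47.7 in Hdac3 RNAi and 47.5 in control, the opposite of Drs between PI3K and control. In discs with both transgenes against PI3K it was lower by a bound of -1.63. Bbd read 32.9, 47.2, 42.1 and 47.9 in the same order of genotypes.

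The upstream signalling genes that were measured were mostly present. No measured gene of the Toll, Imd and JAK/STAT lists was at least 2-fold apart in any of the 5 comparisons. The lists were read in part: 16 of 21 Toll, 17 of 21 Imd and 14 of 23 JAK/STAT entries were measured. In the Toll list 14 of 16 measured genes reached the floor on all arrays. Its median log2 ratio was -0.05 in PI3K against control, -0.08 in Hdac3 RNAi against control and -0.0017 when discs with both transgenes were set against Hdac3 RNAi. The recognition protein gene GNBP3 read 2251 in discs with both transgenes, 2608 in PI3K, 2277 in Hdac3 RNAi and 3001 in control. The serine protease gene grass, which acts upstream of the Toll ligand, was lower in both Hdac3 RNAi genotypes, with 429 in discs with both transgenes, 679 in PI3K, 416 in Hdac3 RNAi and 774 in control. Pli (Pellino), a regulator of Toll signalling, was at -0.46 in PI3K against control.

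The inhibitor and the factors at the end of the Toll pathway were present on all arrays. The IkappaB gene cact read 1148 in discs with both transgenes, 1155 in PI3K, 1148 in Hdac3 RNAi and 1155 in control. Dif read 150, 161, 155 and 158 in the same order, and dl 304, 304, 295 and 342, so control was its highest array (-0.21 log2 in Hdac3 RNAi against control). Both were picked for their role after the values were seen. The transcripts of these factors do not report their activity, which is set by their entry into the nucleus.

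In the Imd list 15 of 17 measured genes reached the floor on all arrays, with medians of -0.01 in PI3K against control, -0.09 in Hdac3 RNAi against control and 0.08 when discs with both transgenes were set against Hdac3 RNAi. The nuclear cofactor gene akirin read 4395 in discs with both transgenes, 2811 in PI3K, 4884 in Hdac3 RNAi and 4277 in control, so the PI3K array was the low one. The kinase subunit gene key read 1185, 1211, 1123 and 1160 in that order, and Rel, which encodes Relish and was picked for its role after the values were seen, 474.4, 443, 474.5 and 524. PGRP-SB1 read 35.8, 38.0, 58.8 and 42.5, highest with Hdac3 RNAi alone as Drs was.

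In the JAK/STAT list 8 of 14 measured genes reached the floor on all arrays, and its median was -0.05 in PI3K against control and -0.13 in Hdac3 RNAi against control. Stat92E, the transcription factor of the pathway, read 680 in discs with both transgenes, 461 in PI3K, 770 in Hdac3 RNAi and 674 in control. Of the 4 measured Turandot stress peptide genes, TotB, TotC and TotZ were under the floor on all arrays, and TotF reached it in PI3K discs only, at 30.4. The thioester protein gene Tep4 read 1726, 1644, 1452 and 1584 in the same order of genotypes.

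Melanisation genes had the list medians furthest from 0 of these 4 pathways in both comparisons of Hdac3 RNAi genotypes with control, -0.22 for Hdac3 RNAi and -0.34 for discs with both transgenes. PPO1 and PPO2 encode the prophenoloxidases of crystal cells, a class of hemocyte. PPO1 read 443 in discs with both transgenes, 973 in PI3K, 447 in Hdac3 RNAi and 767 in control. PPO2 followed with 559.6, 1116, 579 and 854 in that order. Both were thus highest in PI3K and lowest in the 2 Hdac3 RNAi genotypes, unlike He and Drs. The serpin genes Spn27A (0.10 in Hdac3 RNAi against control) and Spn77Ba (-0.22), which encode inhibitors of the melanisation cascade, moved less than PPO1 (-0.78).

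**Figure D5:**
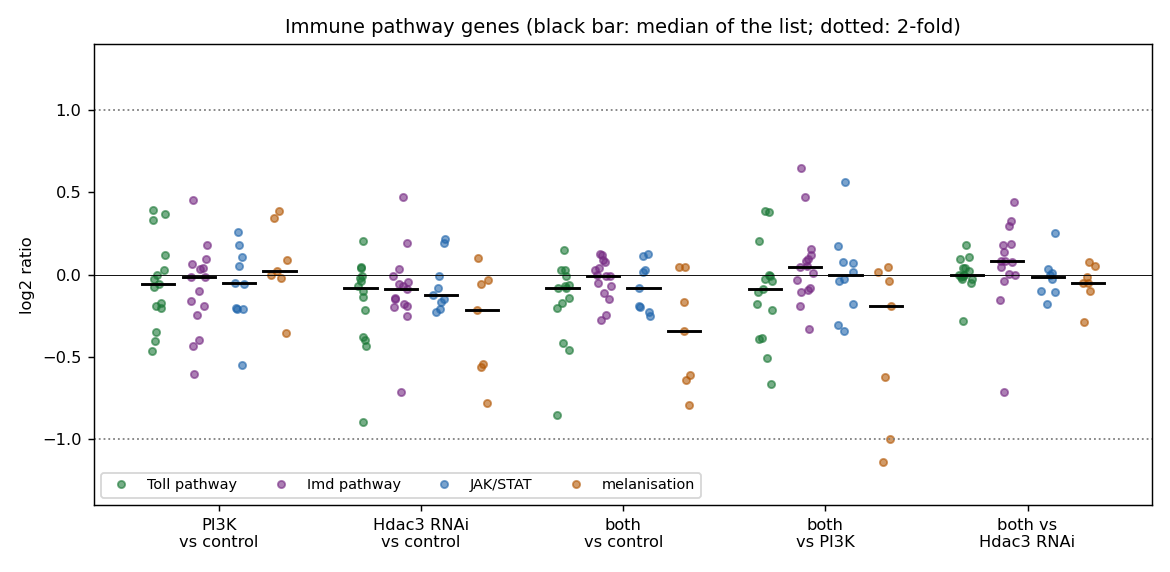
Log2 ratio of each measured gene of the Toll, Imd, JAK/STAT and melanisation lists (points) in the 5 comparisons, with the median of each list as a black bar and dotted lines at 2-fold. The single point past 2-fold is PPO1 at -1.14 in discs with both transgenes against PI3K.

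Drsl5 and Def had close matches with no immune label. Nearest to Drsl5 were Orct (distance 0.20), an organic cation transporter gene, ODA-Dnal1 (0.27), CG14572 (0.28), sturkopf (0.31) and the ESCRT-II gene Vps25 (0.32). Orct read 84.1 in discs with both transgenes, 111 in PI3K, 91.7 in Hdac3 RNAi and 48.7 in control. Nearest to Def was Cht5 (0.02), a chitinase gene, with 635 in discs with both transgenes, 742 in PI3K, 534 in Hdac3 RNAi and 805 in control. CG7322 (0.06), out (0.06), CG13562 (0.08) and CG11034 (0.08) followed.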

How the data were processed

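Gene expression was read on 1 Affymetrix array for each of 4 genotypes. The authors deposited linear intensity values for 18952 probe sets. MAS5 is named, with no version or settings, per the submitters' processing notes. Detection calls were not used here, and any common scaling by the authors is not known. The number of arrays limits the precision. Probe sets were named from the 2016 platform annotation: 13646 with 1 symbol were used, and 402 with several and 4721 with none were left out. Gene order and spans came from RefSeq Release 6. Lists were matched through current symbols and single-gene synonyms.

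With Python 3.11.15, numpy 2.4.6 and pandas 2.3.3, each array was scaled to the mean of the 4 arrays' 2% trimmed means. The probe set with the highest mean stood for a gene. Values under the floor (90th percentile of 125 odorant and gustatory receptor probe sets) were raised to it and log2 was taken. A ratio against a floored value is a bound. A list's median uses the genes that reached the floor on either array of the pair. The counting was tested on simulated data. No test was run, since each genotype has 1 array. The named genes are the members, the 5 genes nearest to each member measured on all arrays, and up to 4 genes per list with the highest mean or a 2-fold difference; others are marked, or are named as under or near the floor. The members and lists were chosen with earlier results of these data known. No sequence is printed, since none was in the sources used here.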

Additional observations from a re-analysis of the deposited data

Results flagged for a closer look

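For 2 members a transgene had effects of opposite sign in the 2 backgrounds, with the difference itself not tested, since each effect is a single pair of arrays. The PI3K effect on Drsl5 was -0.23 log2 with Hdac3 RNAi and 0.97 without it, and the Hdac3 RNAi effect was -0.45 with PI3K and 0.76 without it, which both give a departure from additivity of -1.21. The PI3K effect on Def was 0.22 with Hdac3 RNAi and -0.13 without it, a departure of 0.35. For Def the value of -0.13 lies within the SD of 0.23 between probe sets, and 950 of 7301 genes had a larger departure.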

How the results depend on the processing

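No paired analysis was possible because each genotype has 1 array. The 7 alternatives were 2 scalings, 2 floors, a pseudocount in place of the floor, the mean of a gene's probe sets and a gene-span baseline. Under them every member's log2 ratio kept its sign wherever it had a value, but part of this was fixed in advance. Each member has 1 probe set, so the mean of a gene's probe sets changed no member. The 2 floors left the ratios of Drs, Drsl5 and Def as they were. With a floor, a bound can take only 1 sign. Drs ranged from -1.23 to -0.97 in PI3K against control, from 0.90 to 1.03 in Hdac3 RNAi against control, from -1.11 to -0.93 in both transgenes against control and from -2.09 to -1.83 in both against Hdac3 RNAi. Drsl2 ranged from -1.70 to -1.27 in PI3K against control. The departures of Drs, Drsl5 and Def all moved by less than a wider gauge, the mean probe-set SD times the square root of 2. The departure of Drsl5 ranged from -1.21 to -0.97. With log2(value + 16) it was -0.97, so no member then had a departure of at least 1 log2. He was nearest to Drs under 5 of 6 alternatives, chosen after seeing the data, and in place 2 under quantile normalization. Both genes read above both floors on every array, so the 2 floors could not change their distance. Values as deposited differed from the scaled ones only by array factors of 0.989 to 1.011. These alternatives were therefore weak checks of the place of He. The count of members past 2-fold, bounds included, was 1 in place of 2 with log2(value + 16) in PI3K and in both transgenes against control, 2 in place of 1 with quantile normalization in Hdac3 RNAi against control, and 1 in place of 0 with the 75th percentile floor in both against PI3K. Drs lies close to the 2-fold line in all 3 comparisons with control, and Drsl2 against PI3K is a bound that moves with the floor. Over all named genes, 61 in place of 92 were past 2-fold with log2(value + 16) in PI3K against control; with the 75th percentile floor there were 79 in place of 52 in both against control and 63 in place of 38 in both against Hdac3 RNAi. Of the list medians, 437 moved by less than the probe-set SD of their comparison and 18 by more. For other antimicrobial genes the 95th percentile floor gave -0.15 in Hdac3 RNAi and -0.15 in both against control. For Bomanins it gave 0.40 in PI3K against control and -0.41 in both against Hdac3 RNAi, and the 75th percentile floor gave -0.18 in both against Hdac3 RNAi, -0.27 against PI3K and -0.34 against control. For gut markers the 75th percentile floor gave 0.68 in PI3K against control and, for both, -0.25 against Hdac3 RNAi, -0.93 against PI3K and -0.24 against control; the 95th gave -1.80 against Hdac3 RNAi and -3.47 against PI3K; log2(value + 16) gave -0.90, -2.34 and -1.06 against Hdac3 RNAi, PI3K and control; values as deposited gave -0.33 and quantile normalization -0.37 against control. The cause was not tested. Drsl2, Mtk and AttD are limited by signal over background.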
